A study of Mus musculus with 24 samples.

Results

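Branched-chain amino acid breakdown is represented here by 10 genes, Bcat2, Bckdha, Bckdhb, Dbt, Ivd, Mccc1, Mccc2, Hibch, Hibadh and Pcca, which were taken by symbol. All 10 were found among the 16118 genes of the deposited table, each in 1 row, and all 10 were among the 16005 genes that passed the filter on low values. Poly(A) RNA of inguinal white adipose tissue, a fat depot under the skin of the mouse groin, was sequenced from 24 mice, with 1 library per mouse and 4 mice in each of 6 groups. Males and females were taken at postnatal day 21 (p21), or at day 28 (p28) after standard weaning (SW), with separation from the mother at day 21, or after delayed weaning (DW), in which the young stayed with the mother. The p21 mice carry the SW label too. No allele, drug or strain is given for any group.

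Leucine, isoleucine and valine are essential amino acids that mature fat cells take up and oxidise, and their carbon can enter the tricarboxylic acid cycle and lipid synthesis. In mitochondria, a transaminase (Bcat2 in most tissues) removes the amino group, and the branched-chain ketoacid dehydrogenase performs the committed, irreversible step. This complex is built from an E1 component (Bckdha and Bckdhb), an E2 core (Dbt) and a shared E3 subunit (Dld). Separate enzymes then finish each amino acid: Ivd and the methylcrotonyl-CoA carboxylase subunits Mccc1 and Mccc2 act on leucine, Hibch and Hibadh on valine, and Pcca, with Pccb, carries propionyl-CoA from valine and isoleucine towards the cycle. The pathway is known to be induced when fat cells differentiate.

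Values are the authors' normalised reads per gene. The members were well covered, with between 2823 and 64322 recovered reads per gene and library. Recovered reads in the listed genes ranged from 57600711 to 302145813 per library, and p21 male 53 had the fewest reads and the fewest genes detected (14054). The adipocyte markers, 10 genes that include Adipoq and Plin1, were all present, with a summed value of 16436 to 19423 in p21 males and 19458 to 28050 in the other groups. Markers of other tissues also differed. The 9 skeletal muscle markers summed to 5.44 to 569 in p21 males, against 458 to 6817 in SW males and 336 to 7211 in DW males. The 8 mammary epithelial markers summed to 40.9 to 157 in p21 females, 257 to 356 in SW females and 96.8 to 213 in DW females. In bulk tissue, fewer cells of a type and less RNA per cell cannot be told apart.

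Levels were first compared between genes per kilobase of exon, with all annotated exons of a gene joined. These lengths ran from 1805 bases for Bckdhb to 10952 for Mccc1, and which transcripts were present was not tested. The order therefore depends on the lengths used. Before division, group means were 97.2 to 123 for Mccc1 and 61.1 to 119 for Bckdha. Bckdha had the highest median over the 24 libraries, 47.1 normalised reads per kb, but also the widest range (14.0 to 94.1). Bcat2 followed at 41.0 (25.0 to 70.1), Ivd at 32.7 (20.2 to 45.01), Dbt at 29.5 (21.4 to 50.4), Mccc2 at 27.9 (20.0 to 31.5), Bckdhb at 26.0 (18.6 to 45.7) and Hibch at 24.4 (20.1 to 40.8). The lowest medians belonged to Pcca at 19.0 (14.5 to 24.4), Hibadh at 14.3 (11.9 to 22.5) and Mccc1 at 10.1 (8.18 to 12.7). The ranges of neighbours in this order overlapped in every case. Bckdha, Bcat2 and Pcca share 1171 of 1899, 622 of 3900 and 241 of 5210 exon bases with genes on the other strand. A part of their reads is therefore uncertain. Group means of Bckdha spanned 1.95-fold from the lowest to the highest group, and those of Pcca spanned 1.18-fold. The cytosolic transaminase Bcat1 was far below its mitochondrial counterpart, with group means of 0.778 to 1.40 per kb against 34.5 to 51.1 per kb for Bcat2.

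**Figure D1:**
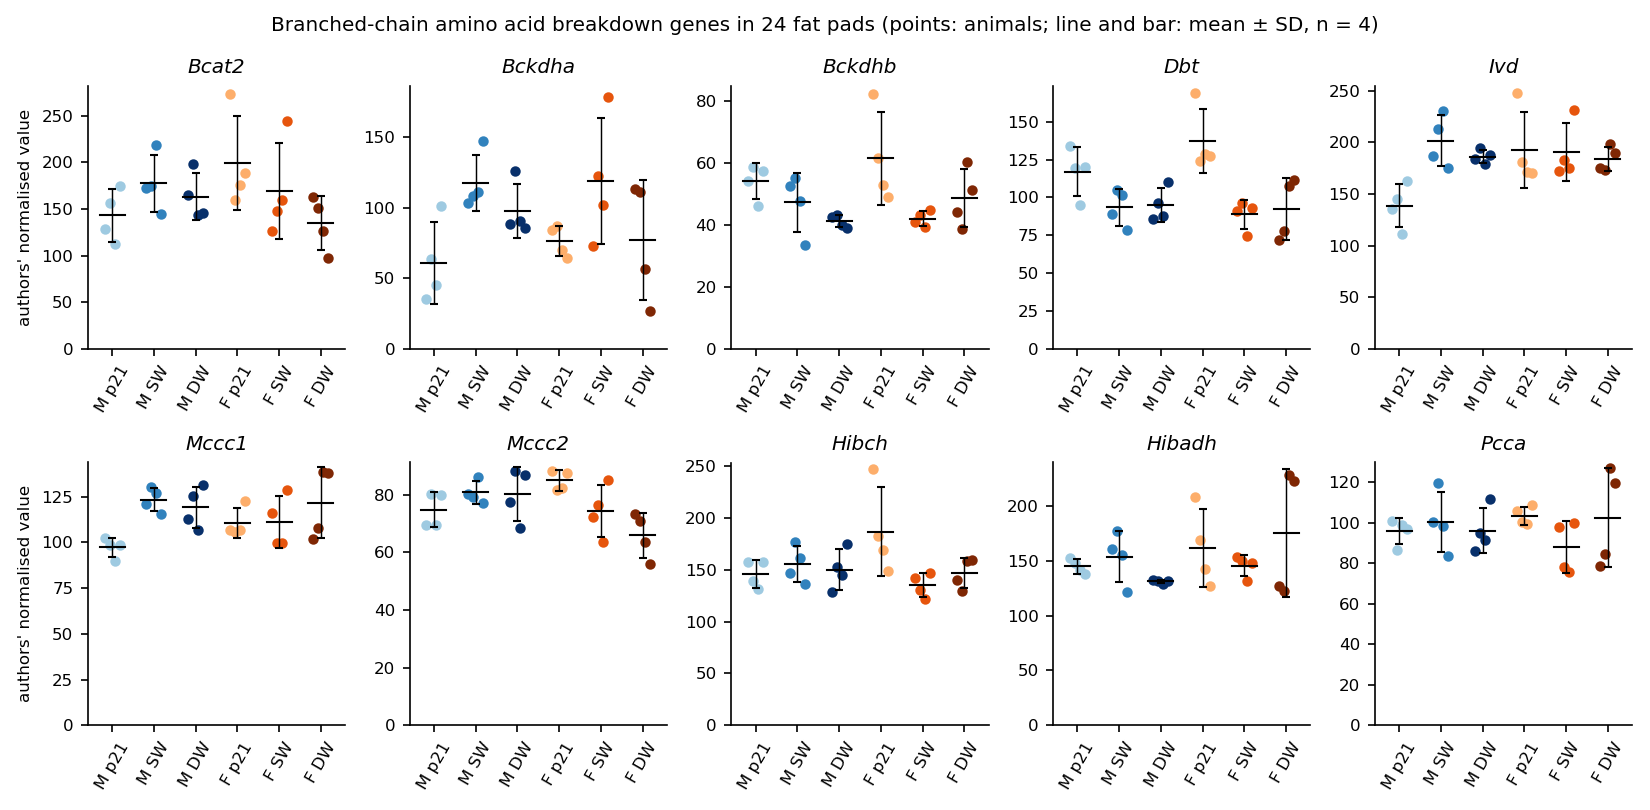
Normalised values of the 10 members in every mouse (points), by sex (M, F) and group (p21, p28 SW, p28 DW), with mean and SD of 4 mice. In males Ivd and Mccc1 lie higher at p28 than at p21 without overlap, and in females Dbt lies lower at p28 than at p21 without overlap.

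From p21 to p28 under SW, 2 members rose in males. Ivd, isovaleryl-CoA dehydrogenase, and Mccc1, the biotin-carrying subunit of methylcrotonyl-CoA carboxylase, were the 2 of 10 called by limma (adjusted p under 0.05 by Benjamini and Hochberg's method), against 11.9% of all genes tested. No member was called lower. The median change of the members was 0.10 on the log2 scale, beside 0.01 over all genes tested.

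Ivd measured 136, 146, 111 and 162 in the p21 males and 187, 213, 230.2 and 176 in the SW males. The groups did not overlap, and the lowest p21 value was that of the library with the fewest reads. How many of all genes were without overlap between groups is not given, here or below. The change was 0.54 (95% confidence interval 0.27 to 0.80, adjusted p = 0.00898, limma).
Mccc1 measured 102, 98.5, 89.6 and 98.7 at p21 and 121, 130.0, 127 and 116 after SW. All 4 SW males were above all 4 p21 males, by 0.34 on the log2 scale (0.12 to 0.56, adjusted p = 0.0395, limma). The Mccc1 call was lost when p21 male 38, 53 or 54 or SW male 78, 84 or 85 was left out (adjusted p = 0.0613 to 0.106, limma), and edgeR gave adjusted p = 0.0648. Mccc1 shares exon bases with opposite-strand transcripts in GENCODE release M21, and the strand setting of the counting is not given in the sources used here, so a part of its reads is uncertain. Its partner Mccc2, the other subunit of the carboxylase, measured 74.8 ± 6.08 at p21 and 80.8 ± 3.86 after SW (SD, n = 4), and its change of 0.11 (-0.10 to 0.32) did not pass the test.

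Bckdha, the E1 alpha subunit that is phosphorylated to switch the dehydrogenase off, showed the largest estimate of the members. Its values were 34.9, 63.5, 45.1 and 101 in p21 males and 104, 109, 111 and 147 in SW males. The p21 males were widely spread, with male 54 close to the SW group. The change of 1.03 (0.30 to 1.77) missed the threshold in limma (adjusted p = 0.0605), passed it in DESeq2 (0.95, adjusted p = 0.0312), and passed it in limma without p21 male 54 (1.31, adjusted p = 0.0239). It also passed in limma with sample weights (0.83, adjusted p = 0.00347), where 5591 of all genes were called. Without DW females 82 and 83, left out after seeing the data, it passed as well (1.03, adjusted p = 0.00939, limma). Those females are outside this comparison but enter its shared estimate of spread. In GENCODE release M21, 1171 of the 1899 exon bases of Bckdha are shared with B3gnt8 on the other strand. B3gnt8 itself measured 0.595 to 3.83 over the 24 libraries, far below Bckdha, and how the authors counted reads in the shared bases is not given in the sources used here.

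The other subunits of the dehydrogenase had estimates of the opposite sign to that of Bckdha. In the same males Dbt, the E2 transacylase core, measured 117 ± 16.2 at p21 and 93.4 ± 12.1 after SW, a change of -0.32 (-0.63 to -0.02, adjusted p = 0.161, limma). Bckdhb, the E1 beta subunit, measured 54.1 ± 5.73 and 47.3 ± 9.62, a change of -0.21 (-0.53 to 0.11). The remaining members, Bcat2, Hibch, Hibadh and Pcca, had changes between 0.06 and 0.31, and none passed the test.

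Males that stayed with the mother gave a like set of values, though they share their p21 controls with the SW males. In DW males 1 of 10 members was called, against 15.0% of all genes tested, and the members' median change was 0.07 beside 0.02 over all genes. Ivd measured 184, 194, 179 and 188 in the 4 DW males, all above p21, and rose by 0.43 (0.17 to 0.70, adjusted p = 0.0263, limma). This call was lost without p21 male 53 (0.33, adjusted p = 0.110) and without DW male 79, 80 or 87 (adjusted p = 0.0511 to 0.0664). Mccc1, at 113, 125, 106 and 131, was also above every p21 male, but its change of 0.29 (0.07 to 0.51, adjusted p = 0.0716) missed the threshold. Bckdha, at 88.5, 126, 90.6 and 85.7, overlapped with p21 male 54, with a change of 0.76 (0.03 to 1.50, adjusted p = 0.152). Bckdhb, at 42.7, 43.1, 39.9 and 39.1, lay below every p21 male (-0.38, -0.70 to -0.06, adjusted p = 0.103). Hibadh, the hydroxyisobutyrate dehydrogenase of the valine branch, was also without overlap, at 129 to 133 in DW males and 138 to 153 in p21 males, with a change of only -0.14 (-0.50 to 0.22).

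The male changes stood beside changes of many markers. The summed adipocyte markers were above every p21 male in all SW and DW males, and 8 of 9 muscle markers were called higher in both comparisons. Macrophage markers were called higher in 3 of 5 under SW and 5 of 5 under DW, while 3 of 4 erythroid and 3 of 7 lymph node markers were called lower in both. The part of the macrophage and erythroid markers in the members' changes was not tested. With the adipocyte score as a covariate, Ivd changed by 0.28 under SW (adjusted p = 0.230, limma) and by 0.14 under DW (adjusted p = 0.592), and neither was called. Bcat2, uncalled in the DW males at 0.20, was called lower with that covariate (-0.50, adjusted p = 0.0374). With muscle, mammary and lymph node scores as covariates no member was called in males. Over all genes, calls then fell from 1901 to 449 under SW and from 2395 to 452 under DW. With the adipocyte score they fell from 1901 to 765 under SW. Mccc1 kept the size of its SW change with the adipocyte score (0.37, adjusted p = 0.115) and with the 3 tissue scores (0.34, adjusted p = 0.190).

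In females the called members were lower at p28. Under SW, 3 of 10 were called, all in that direction, against 11.6% of all genes tested, and the members' median change was -0.22 beside 0.01 over all genes (-0.13 without p21 female 30). The called genes were Dbt, Bckdhb and Hibch, hydroxyisobutyryl-CoA hydrolase of the valine branch.

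Dbt measured 169, 124, 128 and 128 in the p21 females and 91.1, 96.3, 74.3 and 93.2 in the SW females. Every SW female lay below every p21 female, and the change was -0.62 (-0.92 to -0.31, adjusted p = 0.00678, limma). It stayed called whichever animal of the 2 groups was left out (adjusted p up to 0.0352, limma). With the 3 tissue scores as covariates it was -0.44 (adjusted p = 0.220).
Bckdhb measured 82.4, 61.5, 53.0 and 48.9 at p21 and 40.8, 43.3, 39.3 and 44.8 after SW. The groups did not overlap, with a change of -0.51 (-0.83 to -0.19, adjusted p = 0.0351, limma). p21 female 30 was far above the rest, and without it the change was -0.36 (adjusted p = 0.154). The call was also lost without p21 female 36 or SW female 73, 74, 75 or 81 (adjusted p = 0.0545 to 0.0879).
Hibch measured 247, 183, 169 and 148 at p21 and 142, 131, 122 and 147 after SW. The highest SW value was just under the lowest p21 value, and the change was -0.44 (-0.71 to -0.17, adjusted p = 0.0298, limma). Without p21 female 30 it was -0.30 (adjusted p = 0.136), and without p21 female 36 or SW female 74 or 75 the adjusted p was 0.0575 to 0.0928.

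Ivd and Mccc1, the genes that rose in males, had changes of -0.01 (-0.27 to 0.26) and 0.00 (-0.22 to 0.22) in SW females. The estimate of Bckdha again had the opposite sign to those of its complex partners. It measured 84.0, 87.1, 70.4 and 64.3 at p21 and 73.2, 122, 102 and 179 after SW. The change of 0.57 (-0.17 to 1.31) did not pass the test, and the groups overlapped. Bcat2, Mccc2, Hibadh and Pcca had changes between -0.25 and -0.13, with no call.

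In females that stayed with the mother, 2 of 10 members were called, both lower, against 12.1% of all genes tested, with a member median of -0.26 beside 0.00 over all genes (-0.16 without p21 female 30). These females share their p21 controls with the SW comparison. Dbt measured 71.7, 77.6, 108 and 111 in the DW females, all below every p21 female, with a change of -0.58 (-0.89 to -0.28, adjusted p = 0.0119, limma). It was -0.48 (adjusted p = 0.0515) without p21 female 30. Mccc2 measured 73.3, 70.96, 63.7 and 56.0 in DW females against 88.4, 81.5, 82.4 and 87.7 at p21. The groups did not overlap, and the change was -0.37 (-0.58 to -0.16, adjusted p = 0.0200, limma). That call was lost without p21 female 30 or 56 or DW female 82 or 83 (adjusted p = 0.0508 to 0.0887).
Hibch and Bckdhb had estimates of -0.33 (-0.60 to -0.06) and -0.32 (-0.64 to 0.00), which missed the threshold, although Hibch was called without p21 female 56 (-0.43, adjusted p = 0.0456). Bcat2 had the second largest estimate, -0.56 (-0.98 to -0.13, adjusted p = 0.0765, limma), and was called without DW female 76 (-0.66, adjusted p = 0.0371).

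Beside the female changes, 4 of the 5 macrophage markers were called higher in both comparisons. Of 8 mammary epithelial markers, 6 were called higher under SW and 1 under DW. Of 4 erythroid markers, 2 were called lower under SW and 4 under DW. Brown or beige markers were called lower in 1 of 6 under SW and 2 of 6 under DW, and lymph node markers in 1 of 7 in both. The part of the macrophage, erythroid and brown or beige markers in the members' changes was not tested. The tricarboxylic acid cycle list, the next stage of carbon flow, had 5 of 13 genes called lower under SW and 9 of 13 under DW, where 4.23% and 6.16% of all genes were called lower. In males 1 of 13 was called lower under SW and 4 of 13 under DW, where 4.97% and 6.10% of all genes were, and the sexes were not tested against each other for this list. The adipocyte list had 1 of 10 genes called lower under SW and 0 of 10 called under DW, and with the adipocyte score as a covariate Dbt, Bckdhb and Hibch stayed called under SW, and Dbt and Mccc2 under DW, where Bcat2 was called as well (-0.43, adjusted p = 0.0128, limma). The ages fall into separate runs of animal numbers, so age and run cannot be told apart.

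**Figure D2:**
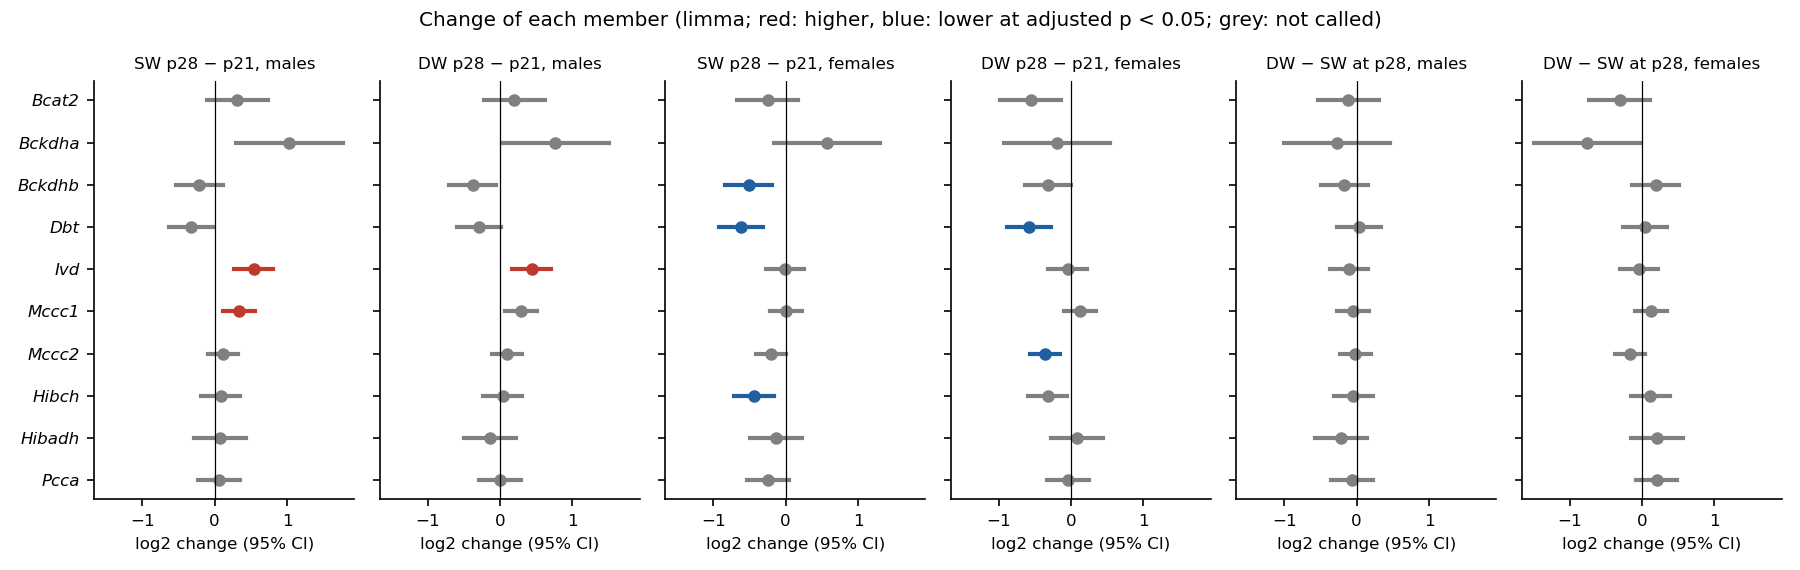
Log2 change of each member with its 95% confidence interval in 6 comparisons (limma, log2(value + 1), n = 4 mice per group). Ivd and Mccc1 are called higher in SW males, Dbt is called lower in both female age comparisons, and no member is called for weaning.

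The sexes were then compared directly. At p21 all 10 members had higher means in females, with a median difference of 0.21 on the log2 scale beside 0.02 over all genes tested. None was called, where 0.356% of all genes were. At an unadjusted p under 0.05 there were 3 members (Bcat2, Ivd and Hibch) in limma, in edgeR and in DESeq2. For this and the later counts at unadjusted p, the share of all genes is not given. The 3 tools read the same libraries. Ivd differed by 0.46 (0.20 to 0.73, adjusted p = 0.194, limma) and did not overlap, at 111 to 162 in males and 170.0 to 248 in females. Mccc1 and Mccc2 did not overlap either, at 89.6 to 102 against 106 to 123 and at 69.4 to 80.2 against 81.5 to 88.4. How many of all genes did not overlap between the sexes at p21 is not given here. Bcat2 differed by 0.46 (0.04 to 0.89) and Hibch by 0.33 (0.06 to 0.60). Without p21 female 30 these fell to 0.30 and 0.19, and Ivd to 0.34, with all 10 members still higher in females and a median of 0.18. The 10 adipocyte markers were also all higher in p21 females, with a median difference of 0.24 and none called. With the adipocyte score as a covariate the differences were -0.03 for Bcat2, 0.00 for Mccc2 and 0.26 for Ivd, and 7 of 10 members were higher in females.
At p28 after SW all 10 members had lower estimates in females (median -0.11 beside 0.01 over all genes). No member was called and none had an unadjusted p under 0.05 in limma, edgeR or DESeq2, where 3.54% of all genes were called. After DW the median was -0.02 beside -0.01 (-0.12 beside 0.00 without DW females 82 and 83), again with no call, against 2.46% of all genes. Mccc2 was the one member with an unadjusted p under 0.05 in limma there (-0.28, -0.49 to -0.07), with Hibadh as another in edgeR and DESeq2.

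Whether the p21 to p28 change under SW differed between the sexes was tested as an interaction. All 10 members had a more negative change in females, with a median of -0.32 beside 0.00 over all genes tested. No member was called, against 1.03% of all genes, and 4 (Ivd, Mccc1, Mccc2 and Hibch) had an unadjusted p under 0.05 in each of limma, edgeR and DESeq2. The estimates were -0.55 (-0.92 to -0.17, adjusted p = 0.225) for Ivd, -0.52 (-0.90 to -0.14, adjusted p = 0.297) for Hibch, -0.34 (-0.65 to -0.03) for Mccc1 and -0.31 (-0.60 to -0.01) for Mccc2. A difference between the sexes in the response to age was therefore not shown for any single member. The p21 and p28 values that make up this contrast are those already given, so it is no separate observation.

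Delayed against standard weaning gave no call for any member. In males 0 of 10 were called, against 0.256% of all genes tested, and none had an unadjusted p under 0.05 in limma, edgeR or DESeq2. Of the 10 estimates, 9 were negative, with a median of -0.08 beside 0.00 over all genes. The intervals were narrow for Mccc2 (-0.02, -0.22 to 0.19) and Mccc1 (-0.05, -0.27 to 0.17) and wide for Bckdha (-0.27, -1.01 to 0.47).
In females 0 of 10 were called, against 1.27% of all genes, with a median of 0.07 beside -0.02. That median rested on DW females 82 and 83: without them all 10 estimates were negative, with a median of -0.07 beside -0.01 over all genes. Bckdha had the largest estimate, -0.76 (-1.50 to -0.03, adjusted p = 0.255, limma). It was -0.34 without DW female 83 and -0.01 without both 82 and 83. With all animals it was the only member with an unadjusted p under 0.05 in limma, with none in edgeR or DESeq2. For the mean of both sexes 0 of 10 were called by limma and 0 had an unadjusted p under 0.05 in the 3 tools, against 2.21% of all genes called.
The test of a sex by weaning interaction called no member either, against 0.0187% of all genes. Its largest estimates were -0.49 (-1.54 to 0.55) for Bckdha and 0.42 (-0.09 to 0.93) for Hibadh. Without DW females 82 and 83 these were 0.26 and -0.01, so both rested on those animals. With all animals Hibadh was the only member with an unadjusted p under 0.05 in edgeR and DESeq2 (0 in limma).

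The female weaning groups hid a split among the DW females. Hibadh measured 127 and 122 in DW females 76 and 77, but 229 and 223 in 82 and 83, against 131 to 153 in the 4 SW females. Bckdha split the opposite way, at 113 and 111 in 76 and 77 and 56.4 and 26.7 in 82 and 83. Pcca, the propionyl-CoA carboxylase alpha subunit, measured 78.5 and 84.9 against 127 and 120. Mccc1 measured 102 and 108 against 139 and 138, while its partner Mccc2 went the other way, at 73.3 and 70.96 against 63.7 and 56.0. Bckdhb, Dbt and Hibch were also above every SW female in both 82 and 83.
The pair of regulators of the dehydrogenase split too. Bckdk, the kinase that inhibits the complex, measured 77.5 and 73.7 in 76 and 77 and 52.2 and 34.96 in 82 and 83. Ppm1k, the phosphatase that reactivates it, measured 22.4 and 22.2 against 33.5 and 42.7.
Libraries 82 and 83 had the 2 lowest sums of deposited values of all 24 (832887 and 802296). Their macrophage marker sums were 235 and 233 against 394 and 427 in 76 and 77, their mammary sums 96.8 and 97.8 against 213 and 194, and their progenitor and fibroblast sums 5573 and 5235 against 7585 and 10180.3. Their adipocyte sums were 21205 and 21175 against 25481 and 21730, with mean log2 values of 9.82 and 9.69 against 10.08 and 10.01, and their brown or beige adipocyte sums were 588 and 361 against 954 and 867. The split was noticed in the values and received no test, and what these libraries share was not tested. Without them, Dbt was the only member called in the DW female age comparison, and Mccc2 changed by -0.23 (adjusted p = 0.206, limma). In SW males, whose test shares the estimate of spread, Bckdha was then called (adjusted p = 0.00939, limma). In DW males, whose test shares it too, 3 members (Bckdha, Ivd and Mccc1) rather than 1 were called. Over all genes, calls rose from 2395 to 3533 in that male comparison and fell from 1938 to 1392 in the female one.

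**Figure D3:**
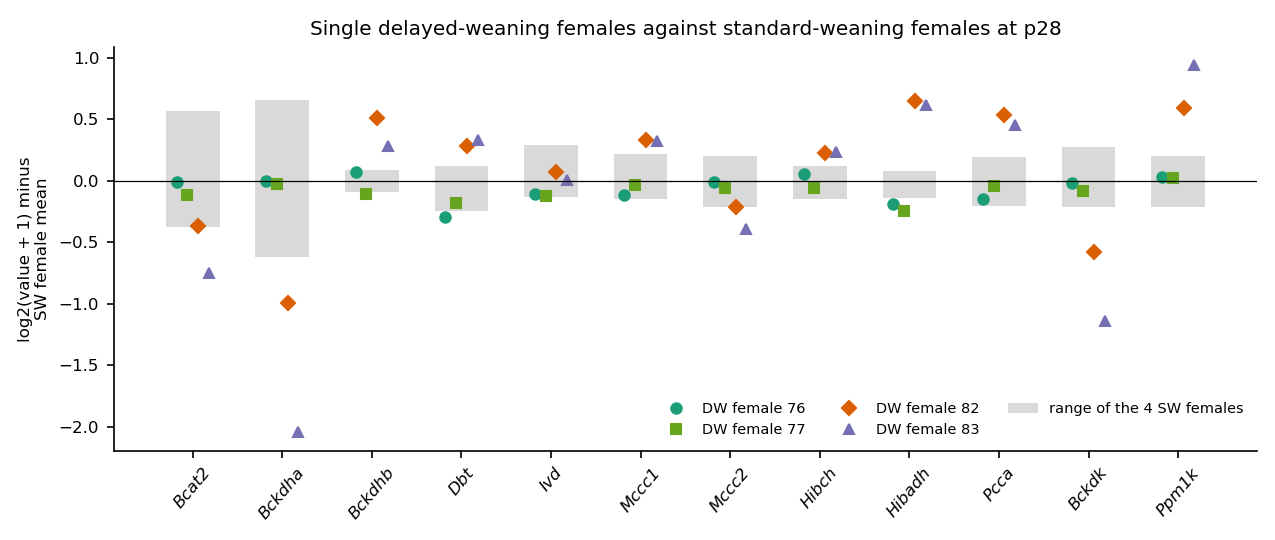
Each DW female's log2(value + 1) minus the mean of the 4 SW females, for the 10 members and the regulators Bckdk and Ppm1k; grey boxes give the range of the SW females. Females 82 and 83 lie above that range for Bckdhb, Dbt, Mccc1, Hibch, Hibadh, Pcca and Ppm1k and below it for Bckdha and Bckdk. Females 76 and 77 lie near or within it for most genes.

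Ratios between subunits of one complex are less touched by scaling than single values, and they are given as a description. The ratio of Bckdha to Dbt was 0.261 to 0.843 in p21 males and 0.498 to 0.703 in p21 females. It was 1.04 to 1.88 in SW males and 0.803 to 1.92 in SW females, above every p21 animal of the same sex. In DW males it was 0.777 to 1.31, which overlapped with p21, and in DW females it ran from 0.239 to 1.58. The ratio of Bckdha to Bckdhb was 0.644 to 1.76 in p21 males, 1.97 to 4.39 in SW males and 2.07 to 2.93 in DW males. For that ratio the DW males did not overlap with p21. In females it was 1.02 to 1.42 at p21, 1.79 to 3.99 after SW and 0.518 to 2.87 after DW. The ratio of Dbt to Bckdhb, by contrast, stayed between 1.63 and 2.82 in all 24 libraries. Mccc1 to Mccc2 was 1.23 to 1.47 in p21 males, 1.47 to 1.64 in SW males and 1.42 to 1.56 in DW males, and 1.21 to 1.40, 1.30 to 1.60 and 1.39 to 2.46 in the female groups in the same order. These ratios compare transcripts, and protein was not measured.

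**Figure D4:**
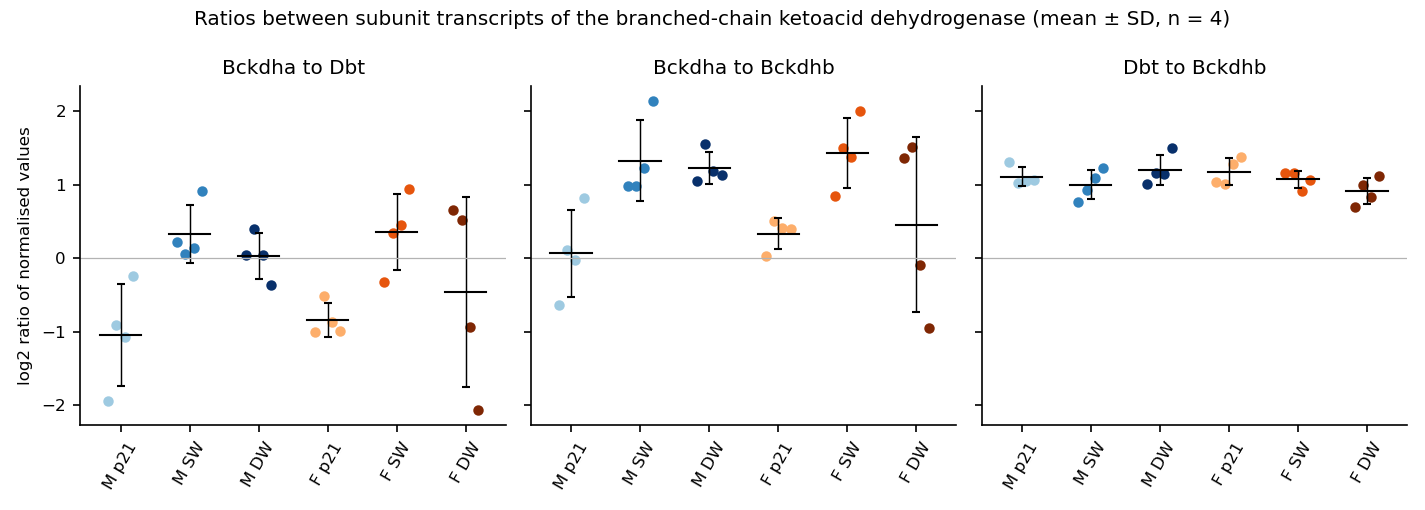
Log2 ratios between subunit transcripts of the branched-chain ketoacid dehydrogenase in every mouse, with mean and SD (n = 4). Bckdha to Dbt and Bckdha to Bckdhb lie higher at p28 than at p21 in SW mice of both sexes, and Bckdha to Bckdhb also in DW males. Dbt to Bckdhb shows no such shift, and the DW females are split widely in both ratios that contain Bckdha.

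The 21 further pathway genes comprised transporters, regulators and the remaining enzymes, and all 21 were tested. In SW males 4 were called higher and 2 lower, in DW males 2 and 3, in SW females 1 and 3, and in DW females 0 and 4. Called in either direction were thus 6, 5, 4 and 4 of 21, where 11.9%, 15.0%, 11.6% and 12.1% of all genes tested were called. None was called in the weaning, sex or interaction comparisons by limma.
Slc7a5, a large neutral amino acid transporter of the plasma membrane, was called lower in all 4 age comparisons. It measured 8.21 to 10.2 in p21 males and 4.14 to 6.14 in SW males (-0.76, adjusted p = 0.000709, limma), and 8.21 to 10.3 in p21 females and 5.37 to 7.37 in SW females (-0.53, adjusted p = 0.00801). The DW changes were -0.62 in males and -0.43 in females. Its partner Slc3a2 was not called. Slc25a44, a mitochondrial carrier for branched-chain amino acids, was called lower in DW females, at -0.39 (adjusted p = 0.0143, limma). Bcat1 was called lower in SW males (-0.71, adjusted p = 0.0362).
Among the enzymes next to a member, Auh, the hydratase that follows the methylcrotonyl-CoA carboxylase, had a change of 0.26 in SW males (adjusted p = 0.0674, limma), which did not pass the test. Pccb, the partner of Pcca, rose in SW males (0.42, adjusted p = 0.0127, limma) while Pcca did not pass the test (0.06). Acadsb, the dehydrogenase of the isoleucine branch, rose in SW males (0.53), DW males (0.41) and SW females (0.40), and Aldh6a1, which follows Hibadh, rose in SW males (0.44, adjusted p = 0.0488).
Dld, the E3 subunit that the dehydrogenase shares with other complexes, fell with Dbt in females. It measured 495 to 543 at p21, 328 to 422 after SW (-0.43, adjusted p = 0.0142, limma) and 330 to 424 after DW (-0.47, adjusted p = 0.00843). Acat1, a thiolase that also ends the isoleucine branch, fell in SW females (-0.56), DW females (-0.41) and DW males (-0.31). Mcee, methylmalonyl-CoA epimerase, fell in DW males (-0.49, adjusted p = 0.0383). Bckdk and Ppm1k were not called in any age comparison, and the largest estimate of Bckdk was -0.50 in DW females (adjusted p = 0.0729).

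Members followed the adipocyte markers to very different degrees. With group means removed, so that animals were compared only within their group, Bcat2 correlated with the mean log2 value of the 10 adipocyte markers at r = 0.88 and rho = 0.88 over 24 animals (permutation of animals within groups, p = 1e-05 for both, the smallest that 100000 permutations can give; 0.0001 after adjustment over the 10 members). Without p21 female 30 and DW female 83, the 2 animals farthest out, r was 0.84. Mccc2 gave r = 0.75 and rho = 0.76 (permutation p = 0.00019 and 0.00046; adjusted 0.00095 and 0.0023; r = 0.77 without the 2 animals). Bckdha gave 0.63 and 0.59 (permutation p = 0.0032 and 0.0117; adjusted 0.0107 and 0.0346; 0.63) and Ivd 0.63 and 0.52 (permutation p = 0.00697 and 0.0138; adjusted 0.0174 and 0.0346; 0.58). For the other 6 members r lay between -0.23 and 0.40, with adjusted permutation p of 0.225 or more. They were 0.40 for Bckdhb, 0.28 for Hibch, 0.12 for Dbt, -0.05 for Hibadh, -0.08 for Mccc1 and -0.23 for Pcca. Only the members were put to this test. How many of all genes would pass it is not given, so whether the members differ from other genes here was not tested.
Among the members themselves, over all 24 libraries, the highest correlations were Bckdhb with Dbt (0.81), Bcat2 with Mccc2 (0.79), and Dbt with Hibch (0.78). The lowest were Bckdha with Pcca (-0.46), with Hibadh (-0.46) and with Dbt (-0.45). These are descriptions, and the libraries share their group means and scaling.

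Outside the pathway, the genes most like the members were sought among 9912 genes by correlation with the members' mean standardised log2 value over the 24 libraries. The 8 highest were Eci2 (r = 0.94), an enoyl-CoA isomerase of fatty acid oxidation, Serhl (0.88), Suclg2 (0.86), a subunit of succinyl-CoA synthetase, Adhfe1 (0.83), Kyat3 (0.82), Ppm1a (0.82), Apmap (0.81), an adipocyte membrane protein, and Pex19 (0.79), a peroxisome import factor. With group means removed, Eci2 stayed at 0.95 and the other 7 lay between 0.78 and 0.86.

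Promoters were set side by side for 2 members called higher in SW males (Ivd and Mccc1) and 2 called lower in SW females (Bckdhb and Hibch). The genes were picked by these calls alone. RefSeq's promoter table (GRCm38.p6) held 9 of the 10 members at 12 start sites, and Dbt was not matched. The 250 bases before the start are printed 5′ to 3′ on the gene's strand. The starts used for Hibch and Mccc2 equal the gene start in RefSeq, and those for Ivd, Mccc1, Bckdhb, Bcat2 and Bckdha do not. Capitals mark CCAAT (or ATTGG on the other strand) and GGGCGG (or CCGCCC), and neighbouring matches can run together.
Ivd (chr2:118861744-118861993, plus strand): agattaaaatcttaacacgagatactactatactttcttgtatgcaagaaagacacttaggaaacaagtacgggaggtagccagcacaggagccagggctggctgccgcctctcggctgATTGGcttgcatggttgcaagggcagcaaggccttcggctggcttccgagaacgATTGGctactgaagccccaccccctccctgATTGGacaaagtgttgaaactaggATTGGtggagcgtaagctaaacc
Mccc1 (chr3:36000679-36000928, minus strand): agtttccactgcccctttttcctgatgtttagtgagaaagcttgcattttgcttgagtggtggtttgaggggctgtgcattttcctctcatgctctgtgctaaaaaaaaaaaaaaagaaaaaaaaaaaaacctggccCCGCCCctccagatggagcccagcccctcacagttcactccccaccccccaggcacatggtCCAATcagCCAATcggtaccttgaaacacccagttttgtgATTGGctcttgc
Bckdhb (chr9:83924887-83925136, plus strand, first of 2 starts): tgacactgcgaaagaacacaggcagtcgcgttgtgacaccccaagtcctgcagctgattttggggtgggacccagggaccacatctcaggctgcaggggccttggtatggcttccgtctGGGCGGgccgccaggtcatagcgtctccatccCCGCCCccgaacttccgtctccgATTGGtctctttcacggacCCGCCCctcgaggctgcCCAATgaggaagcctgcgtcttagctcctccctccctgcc
Hibch (chr1:52844788-52845037, plus strand): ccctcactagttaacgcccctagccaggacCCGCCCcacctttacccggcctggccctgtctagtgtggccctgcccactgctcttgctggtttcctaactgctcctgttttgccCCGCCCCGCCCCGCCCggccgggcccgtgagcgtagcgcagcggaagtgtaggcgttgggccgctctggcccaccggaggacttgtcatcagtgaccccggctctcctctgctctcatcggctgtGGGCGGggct
The Ivd window holds 4 CCAAT matches and no GGGCGG, and the Mccc1 window holds 3 CCAAT and 1 GGGCGG. The Bckdhb window holds 2 CCAAT and 3 GGGCGG, and the Hibch window holds 5 GGGCGG, overlaps counted, and no CCAAT. Of 32851 promoter windows of the same length, 33.8% hold at least 1 CCAAT and 2.79% hold 3 or more, while 32.7% hold GGGCGG and 8.47% hold 3 or more. CCAAT was not limited to the genes that rose in males: Mccc2, which was called lower in DW females, also has 3 matches. The windows of Bcat2 (2 starts) and Bckdha hold neither motif. AAGGTCA, searched on both strands and present in 4.08% of windows, was found in no member window, and CACGTG, in 6.02%, was found in that of Mccc2 alone. These matches describe letters only, no binding was measured, and the motifs were chosen with the members' values known.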

How the data were processed

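Expression was measured in 24 libraries in 6 groups of 4 mice. The authors deposited a signal per gene, reads divided by a factor of each sample, and per the file headers log2 fold changes with adjusted p-values for pairs of groups. Those authors' comparisons were not used: each adjusted p-value column was almost without ties. Titles of the p21 libraries say p28, and the age labels were followed. The submitters' processing notes name fastp, HISAT2, featureCounts, DESeq2 1.38.3 and mm10, with no role or order, but only 2.23% of deposited gene starts equal those of GENCODE release M21 on GRCm38, so deposited coordinates are not printed. Exon lengths come from that release. The mice are separate animals.

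Values were whole multiples (100%, tolerance 0.001) of each sample's smallest value, so whole reads were recovered. The planned count test was replaced by limma because the file holds normalised values. After filterByExpr (minimum count 10; 16005 genes, 90 repeated rows left out), limma 3.58.1 in R 4.3.3 was fitted to log2(value + 1) of all 24 samples (6 group terms, variance trend, 18 residual degrees of freedom), with Benjamini-Hochberg adjustment over all genes tested. The log2(value + 1) scale understates changes of low genes. edgeR 4.0.16 (TMM) and DESeq2 1.42.0 on recovered reads, other filters, covariates and left-out animals were alternatives. Intervals are at 95%. No animal number is shared between groups. No replicate pair agreed within sampling noise (chi-square per degree of freedom 77.1 or more over 36 pairs). The limma fit was tested on simulated data. Members and lists were chosen with earlier results of these data known. All members are described in every comparison, with further pathway genes where called or next to a member, and the 8 most correlated genes outside the lists. A further pathway gene is not reported here, though the counts over the list include it.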

Additional observations from a re-analysis of the deposited data

Results flagged for a closer look

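Values of 4 mice per group were searched for a single animal far from the other 3 (gap over range above Dixon's 95% critical value) in 60 sets of member and group, of which chance picks about 1 in 20. Of the 4 values found, on the log2(value + 1) scale, 2 came from p21 female 30: Dbt at 7.41, with the other p21 females at 6.96 to 7.02, and Ivd at 7.96, with the others at 7.42 to 7.51. That animal also had the highest summed adipocyte markers of the p21 females (25984). Mccc1 in p21 female 56 was 6.95, with the others at 6.74 to 6.75. Bckdha in DW male 80 was 6.99, with the others at 6.44 to 6.52.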

How the results depend on the processing

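Member calls rest on small counts. Of the members' values under the alternatives, 2651 kept direction and side of the threshold, 45 were no longer called, 22 became called and 2 reversed. Bckdha in SW males became called without DW females 82 and 83. In SW males (2 called) the count was 1 with edgeR and with TMM scaling (Ivd), and 1 with a fit of the compared groups alone (Mccc1). It was 3 with DESeq2 and 5 with sample weights. The count was 0 without p21 male 53, SW male 84 and p21 female 36, with the 3 tissue scores or with the adipocyte score. In SW females (3) it was 0 with the tissue scores. In DW males (1) it was 5 with sample weights, 2 with only the compared groups, 0 without those 3 libraries or with the tissue scores, and 3 without DW females 82 and 83, an alternative chosen after seeing the data. In DW females (2) it was 6 with sample weights, 0 with only the compared groups and 1 without 82 and 83. Leaving out each replicate gave 1 to 2, 1 to 3, 0 to 1 and 0 to 3 in these 4 comparisons in the same order, and 0 to 1 for sex after DW. The mean weaning comparison had 1 call (Bcat2) with the adipocyte score, and sex by age had 1 (Ivd) with sample weights. There 807 rather than 353 and 823 rather than 165 of all genes were called. Calls over all 16005 genes changed as well. The main fit called 1901 in SW males, 1860 in SW females, 2395 in DW males and 1938 in DW females. Sample weights gave 5591, 6356 and 5509 in SW males, DW males and DW females. Tissue scores gave 449, 417 and 452 in SW males, SW females and DW males. Fits of the compared groups alone gave 822, 2021 and 495 in SW males, DW males and DW females. Bcat2 in DW males reversed to -0.50 with the adipocyte score (adjusted p = 0.0374, limma), and Bckdha in DW females to 0.58 with sample weights (adjusted p = 0.0290, limma). The cause of these changes was not tested. No setting moved the median of all genes by more than 0.06 (log2). The run of animal numbers could not be fitted as a covariate for the age comparisons. No paired analysis was possible because the groups share no animal number. With 4 mice per group, Bckdha is estimated to within about 0.7 on the log2 scale and most other members to within 0.2 to 0.4.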
